A study of Rattus norvegicus with 12 samples.

Results

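Bacterial pattern-recognition receptors and their helpers were described in rings of rat aorta embedded in fibrin or collagen gel, a culture model of vessel sprouting. The genes were taken by symbol from the array's gene annotation: 10 were listed and 9 were analysed, of 14324 annotated genes on the array. Tlr1 was not analysed here. Each of the 9 genes had a single probe set, so no choice between probe sets was needed.

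The rings came from aortas of male Fisher 344 rats aged 1 to 2 months and were kept in serum-free medium. RNA was taken at day 2, and each sample combined 4 to 6 ring cultures. The 12 arrays form 4 groups of 3: fibrin gel with 10 ng/ml recombinant rat TNF-alpha (fibrin TNF), fibrin gel without it (fibrin control), collagen gel with 10 ng/ml TNF-alpha (collagen TNF) and collagen gel without it (collagen control). A ring is a slice of vessel wall of mixed cell types, so a level is that of all its cells together, and fewer cells of a type and less RNA per cell cannot be told apart. The fibrin samples carry a tissue label that names collagen gels, and their groups follow the titles, which the treatment labels match. The replicates are named as biological, but no label says that they came from separate animals, and the p-values speak of the spread among these 12 samples.

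Toll-like receptors are membrane proteins that bind microbial molecules and, in damaged tissue, some molecules of the host. Tlr4 detects bacterial lipopolysaccharide together with the secreted protein Ly96, also called MD-2, after the plasma protein Lbp and the surface protein Cd14 have passed the lipid on. Tlr2 pairs with Tlr1 or Tlr6 to detect bacterial lipoproteins. Tlr7 sits in endosomes and detects single-stranded RNA, so it is not a receptor of the bacterial surface, although it is listed with the others. Myd88 is the adaptor through which these receptors, and those for interleukin 1, signal to NF-kB. Nod2 is a separate, cytosolic sensor of a peptidoglycan fragment. In vessels these genes are used by macrophages, endothelial cells, smooth muscle cells and fibroblasts.

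Values are the deposited log2 levels, which can be compared between arrays for a gene but not between genes. Array medians lay between 5.89 and 5.98, and centring each array on its median moved the median difference between fibrin and collagen over all genes to 0.05 without TNF and 0.04 with TNF (log2), against -0.01 and 0.00 as deposited. Replicate arrays of a group differed from each other by an SD of 0.20 to 0.25 (log2) over all probe sets, and 0 arrays were identical. Differences were tested with limma across all 14324 genes with Benjamini-Hochberg adjustment, and "called" means an adjusted p under 0.05. Without TNF 767 genes were higher and 743 lower in fibrin (1217 and 474 after median centring). With TNF 652 were higher and 521 lower in fibrin (880 and 387 after median centring).

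**Figure D1:**
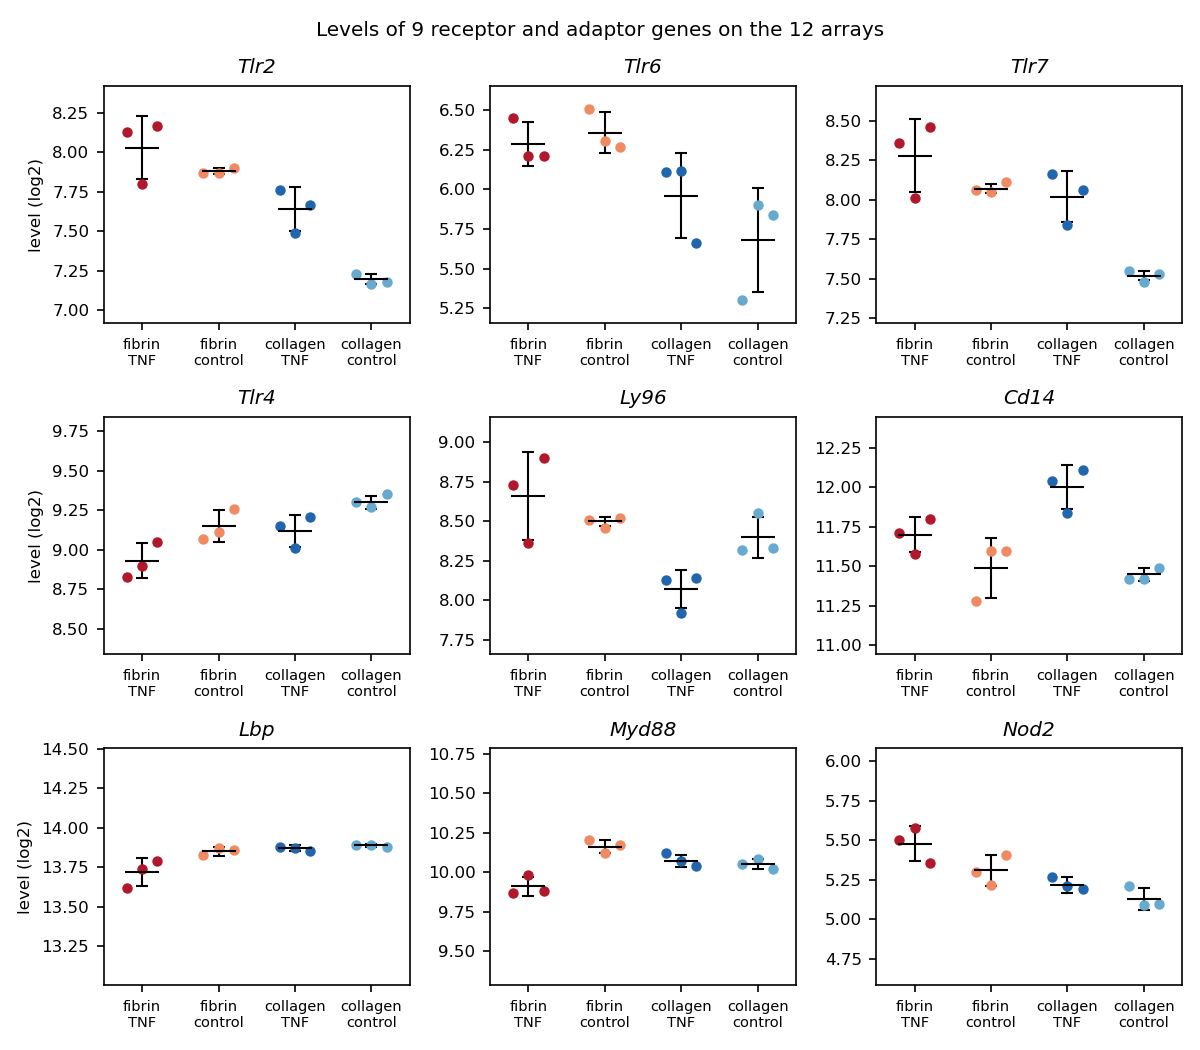
Levels (log2, y axis, each panel spanning 1.5) of the 9 genes in the 4 groups (x axis), with 1 point per array, and the mean and SD of 3 arrays in black. Tlr2 and Tlr7 are lowest on all 3 collagen control arrays, Cd14 is highest on the 3 collagen TNF arrays and Ly96 is lowest on the 3 collagen TNF arrays.

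Tlr2, the shared chain of the lipoprotein receptors, had the widest span of group means among the 9 genes. Its level was 7.87, 7.87 and 7.90 on the fibrin control arrays, against 7.23, 7.17 and 7.18 on the collagen control arrays. Every untreated fibrin array thus lay above every untreated collagen array. The difference was 0.69 ± 0.10 (log2, SE), or 1.61-fold (limma adjusted p = 0.0005). It passed in every alternative tried for this comparison, with an adjusted p of at most 0.00324.

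TNF raised Tlr2 in collagen, where the level was 7.76, 7.49 and 7.67 with TNF, against 7.23, 7.17 and 7.18 without it (the collagen control arrays are shared with the comparison above). The arrays did not overlap, and the difference was 0.45 ± 0.10 (1.36-fold, limma adjusted p = 0.0153). That call was lost in 4 of 6 fits with an array left out, with adjusted p = 0.0716 or 0.0581 without collagen TNF replicate 1 or 3, and 0.0577 or 0.0557 without collagen control replicate 2 or 3. In fibrin Tlr2 was 8.13, 7.80 and 8.17 with TNF, against 7.87, 7.87 and 7.90 without. These arrays overlapped, and the difference of 0.15 ± 0.10 was not called (limma adjusted p = 0.511, 95% interval -0.06 to 0.36). Under TNF in both gels Tlr2 was still higher in fibrin, by 0.39 ± 0.10 (limma adjusted p = 0.0275), and the arrays did not overlap. This call was lost without fibrin TNF replicate 1 or 3 (adjusted p = 0.105 or 0.104), without collagen TNF replicate 2 or 3 (0.116 or 0.069) and with only the groups compared in the fit (0.0979). From low to high the group means were 7.20 in collagen control, 7.64 in collagen TNF, 7.88 in fibrin control and 8.03 in fibrin TNF, and only the last 2 neighbours overlapped in their arrays.

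The stretch upstream of Tlr2 is shown because it holds a palindromic match to the kappaB consensus, the sequence bound by NF-kB. The 30 bases lie at chr2:171504743-171504772 (GRCr8, minus strand, RefSeq), from -215 to -186 counted from the transcript start in the RefSeq promoter table, with the match in capitals.
Tlr2: aggcccttggGGGAATTCCCatacggagcc
This window lies inside the span of the RefSeq gene record, which begins further upstream, so the start used is that of 1 transcript. Of 33469 rat promoter windows of 250 bases, 4.24% held a kappaB match on either strand. Promoter windows were found for 7 of the 10 listed genes, and Tlr2 was the gene among them with a kappaB match. The match is a description of these letters and not of binding.

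Tlr6, a partner of Tlr2, was measured with more spread. It lay at 6.51, 6.31 and 6.27 on the fibrin control arrays, against 5.30, 5.90 and 5.84 on the collagen control arrays. The arrays did not overlap, and collagen control replicate 1 lay well below the rest of its group. All 3 collagen control values were below the array medians of that group (at least 5.95), so the reference was low on the scale. The difference was 0.68 ± 0.16 (1.60-fold, limma adjusted p = 0.0163). Leaving out fibrin control replicate 1 ended that call (0.61, adjusted p = 0.0699). With an array left out the difference ranged from 0.49, without collagen control replicate 1, to 0.79. Under TNF the level was 6.45, 6.21 and 6.21 in fibrin, against 6.11, 6.12 and 5.66 in collagen. These arrays did not overlap either, yet the difference of 0.33 ± 0.16 was not called (limma adjusted p = 0.258), and it was 0.18 without collagen TNF replicate 3. The effect of TNF was 0.28 ± 0.16 in collagen and -0.07 ± 0.16 in fibrin, both uncalled. With an array left out the value in collagen ranged from 0.09, without collagen control replicate 1, to 0.44, without collagen TNF replicate 3, and the value in fibrin reached 0.00 without fibrin control replicate 1. Tlr1 and Tlr6 are close relatives that lie side by side in the genome, and a probe set for one can also take up RNA of the other, so Tlr6 is uncertain as a single gene.

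Tlr7, the endosomal RNA sensor, was also lowest in collagen control. Its level was 8.06, 8.05 and 8.11 in fibrin control, against 7.55, 7.48 and 7.53 in collagen control, with no overlap. The difference was 0.55 ± 0.11 (1.47-fold, limma adjusted p = 0.00519), called in every alternative, with an adjusted p of at most 0.0239. In collagen with TNF the level was 8.16, 7.84 and 8.06, against the same collagen control arrays, a difference of 0.50 ± 0.11 (1.42-fold, limma adjusted p = 0.0143). That call was lost without collagen TNF replicate 1 or 3 (adjusted p = 0.0674 or 0.0547) and without collagen control replicate 2 (0.0565). In fibrin the level was 8.36, 8.01 and 8.46 with TNF, which overlapped with the fibrin control arrays (difference 0.20 ± 0.11, limma adjusted p = 0.407). Under TNF fibrin differed from collagen by 0.26 ± 0.11, uncalled (limma adjusted p = 0.187), but called without fibrin TNF replicate 2 (0.39, adjusted p = 0.0227). Collagen TNF and fibrin control, with means of 8.02 and 8.07, overlapped.

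Tlr4, the signalling chain of the lipopolysaccharide receptor complex, was lowest in fibrin TNF and highest in collagen control, with 8.83, 8.90 and 9.05 in fibrin TNF, 9.07, 9.11 and 9.26 in fibrin control, 9.15, 9.01 and 9.21 in collagen TNF, and 9.30, 9.27 and 9.35 in collagen control. With TNF every array lay below every control array of the same gel. The differences were small, at -0.18 ± 0.08 in collagen (limma adjusted p = 0.252) and -0.22 ± 0.08 in fibrin (limma adjusted p = 0.201), and neither was called. Fibrin differed from collagen by -0.16 ± 0.08 without TNF and by -0.20 ± 0.08 with it, also uncalled (limma adjusted p = 0.264 and 0.174). The 95% interval of the 4 differences had its lowest end at -0.39 and its highest at 0.02.

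Ly96, which binds the lipid for Tlr4, was lowest in collagen with TNF. It lay at 8.73, 8.36 and 8.90 in fibrin TNF, against 8.13, 7.92 and 8.14 in collagen TNF, with no overlap. This difference of 0.59 ± 0.12 (1.51-fold) was called (limma adjusted p = 0.00842) and remained so in every alternative, with an adjusted p of at most 0.0429. Without TNF the level was 8.51, 8.46 and 8.52 in fibrin, against 8.32, 8.55 and 8.33 in collagen, and these arrays overlapped (difference 0.10 ± 0.12, limma adjusted p = 0.684). The effect of TNF was -0.33 ± 0.12 in collagen (limma adjusted p = 0.143), where the arrays did not overlap, and 0.16 ± 0.12 in fibrin (limma adjusted p = 0.579), where they did. The difference of these effects was 0.50 ± 0.17, with an unadjusted p of 0.0127 and a limma adjusted p of 0.217. It was called only without fibrin TNF replicate 2 (0.65, adjusted p = 0.0319).

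Cd14, the co-receptor that hands lipid to Tlr4 and also assists Tlr2, rose with TNF in collagen. The level was 12.04, 11.84 and 12.11 with TNF, against 11.42, 11.42 and 11.49 in collagen control, with no overlap. The difference was 0.55 ± 0.10 (1.47-fold, limma adjusted p = 0.00484), called in every alternative, with an adjusted p of at most 0.0281. In fibrin the level was 11.71, 11.58 and 11.80 with TNF, against 11.28, 11.60 and 11.60 without, which overlapped (difference 0.20 ± 0.10, limma adjusted p = 0.361). Between the untreated gels the difference of Cd14 was not called (0.05 ± 0.10, limma adjusted p = 0.817, 95% interval -0.17 to 0.27). The sign of that difference turned (-0.01) without fibrin control replicate 2 or 3. Under TNF every fibrin array lay below every collagen array, with a difference of -0.30 ± 0.10 that was not called (limma adjusted p = 0.0956) except with a trended and robust prior (adjusted p = 0.0385).

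Lbp, the plasma carrier of lipopolysaccharide, had levels near the top of the scale. It was 13.62, 13.74 and 13.79 in fibrin TNF, 13.83, 13.87 and 13.86 in fibrin control, 13.88, 13.87 and 13.85 in collagen TNF, and 13.89, 13.89 and 13.88 in collagen control. On 2 collagen control arrays it was the highest of all 27342 probe sets. The distance to the array's highest value was at most 0.02 in collagen control and between 0.26 and 0.45 in fibrin TNF. How far a ceiling of the signal narrows its differences was not tested. The 3 fibrin TNF arrays lay below all others, with a difference of -0.14 ± 0.06 from fibrin control (limma adjusted p = 0.315) and of -0.15 ± 0.06 from collagen TNF (limma adjusted p = 0.174). The second was called only with a trended and robust prior (adjusted p = 0.0255). Between the untreated gels the difference was -0.03 ± 0.06, and 0.03 after median centring.

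Myd88, the common adaptor, changed little. Its level was 9.87, 9.98 and 9.88 in fibrin TNF, against 10.20, 10.12 and 10.17 in fibrin control, with no overlap. This decrease of 1.19-fold (difference -0.26 ± 0.06) was called (limma adjusted p = 0.0385), but adjusted p = 0.0688 with the replicate number as a block and 0.18 with the fibrin arrays alone. It was also lost in 5 of 6 fits with an array left out: without fibrin TNF replicate 1 or 3 (0.123 or 0.104) and without fibrin control replicate 1, 2 or 3 (0.0914, 0.0805 or 0.134). In collagen the level was 10.12, 10.07 and 10.04 with TNF, against 10.05, 10.08 and 10.02 in control (difference 0.03 ± 0.06, 95% interval -0.11 to 0.16). Fibrin and collagen differed by 0.12 ± 0.06 without TNF (limma adjusted p = 0.275) and by -0.17 ± 0.06 with TNF (limma adjusted p = 0.122), and in both cases the arrays did not overlap.

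The promoter of Myd88 is shown because it holds a match to the interferon-stimulated response element, which interferon-activated factors bind. The 250 bases before the transcript start lie at chr8:127956231-127956480 (GRCr8, minus strand, RefSeq), with the match at -16 to -7 in capitals.
Myd88: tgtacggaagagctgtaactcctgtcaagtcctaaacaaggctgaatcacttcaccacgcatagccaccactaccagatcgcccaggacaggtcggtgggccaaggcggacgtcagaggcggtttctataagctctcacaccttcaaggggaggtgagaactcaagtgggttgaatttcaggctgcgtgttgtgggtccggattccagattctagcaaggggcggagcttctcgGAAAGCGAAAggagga
The motif searched was GAAA, any 2 bases and GAAA again, on both strands, and 3.41% of the 33469 windows held it. The windows of the other 6 listed genes found in the table held no such match. A TATA box (TATAAA, both strands) was also searched, and of the 7 windows that of Tlr1 held it, at -229 to -224 on the minus strand, where 12.9% of all windows did.

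Nod2, the cytosolic peptidoglycan sensor, had its lowest levels in collagen control and its highest in fibrin TNF. It was 5.50, 5.58 and 5.36 in fibrin TNF, 5.30, 5.22 and 5.41 in fibrin control, 5.27, 5.21 and 5.19 in collagen TNF, and 5.21, 5.09 and 5.10 in collagen control. Each neighbour in this order overlapped with the next. The largest difference between 2 groups tested, fibrin against collagen with TNF, was 0.26 ± 0.08 (limma adjusted p = 0.0602). It was called after median centring (0.30, adjusted p = 0.0318), after quantile normalization (0.29, adjusted p = 0.0367) and without fibrin TNF replicate 3 (0.32, adjusted p = 0.0368). Nod2 was the gene of the 9 that a filter on the third of genes with the lowest mean would leave out.

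**Figure D2:**
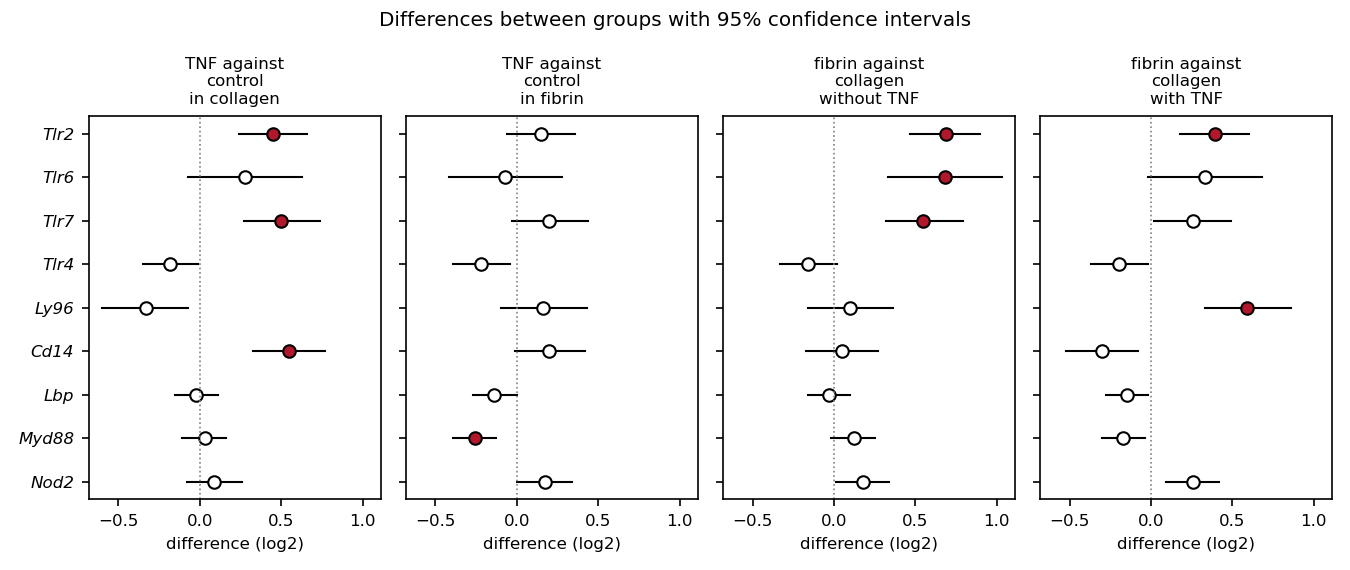
Differences between groups (log2, x axis) with 95% confidence intervals from limma for the 9 genes (rows) in 4 comparisons (panels); filled points were called at an adjusted p under 0.05. Tlr2, Tlr6 and Tlr7 are filled between the untreated gels, and Tlr2, Tlr7 and Cd14 are filled for TNF in collagen.

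Counted by comparison, TNF in collagen raised 3 of the 9 genes, Tlr2, Tlr7 and Cd14, and lowered 0. Of all genes 6.37% were called, 3.27% higher and 3.10% lower. The median difference of the 9 was 0.09, against 0.00 over all genes. Leaving out collagen TNF replicate 1 or 3, or collagen control replicate 2, left Cd14 as the 1 call. In fibrin 1 of 9 fell with TNF, Myd88, and 0 rose, where 3.13% of all genes were called, 1.65% higher and 1.47% lower. With the replicate number as a block, 0 of 9 were called there (Myd88 adjusted p = 0.0688). The median difference was 0.15, against 0.01 over all genes. Untreated fibrin was higher than untreated collagen for 3 of 9, Tlr2, Tlr6 and Tlr7, where 10.5% of all genes were called, 5.35% higher and 5.19% lower (median 0.12, against -0.01 over all genes). With TNF 2 of 9 were higher in fibrin, Tlr2 and Ly96, where 8.19% of all genes were called, 4.55% higher and 3.64% lower (median 0.26, against 0.00 over all genes). The comparisons share arrays, so these counts are not independent of each other.

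Groups that did not overlap were more frequent than calls, among all genes too. For TNF in collagen 5 of 9 genes had separate arrays, 3 higher and 2 lower, where 26.5% of all genes did, 12.7% higher and 13.8% lower. For TNF in fibrin 3 of 9 were separate and lower, where 18.1% of all genes were separate, 10.2% higher and 7.97% lower. Between the untreated gels 5 were higher and 2 lower in fibrin, where 29.3% of all genes were separate, 14.3% higher and 15.0% lower. With TNF 4 were higher and 3 lower in fibrin, where 27.6% of all genes were separate, 14.8% higher and 12.9% lower. Replicate 2 was the lowest array of its group for 4 of the 9 genes in fibrin TNF, 5 in fibrin control, 5 in collagen TNF and 5 in collagen control, and its part in these values was not tested beyond the fits without it.

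For the difference of the TNF effect between gels, limma called 0 of 9 genes, where 1.24% of all genes were called, 0.370% higher and 0.866% lower. Of the 9, 3 had an unadjusted p under 0.05, where 13.1% of all genes did. These 3 were Cd14 (-0.35 ± 0.14, limma adjusted p = 0.318), Ly96 (0.50 ± 0.17) and Myd88 (-0.28 ± 0.09, limma adjusted p = 0.155). The call of TNF on Tlr2, Tlr7 and Cd14 in collagen and its absence in fibrin therefore do not show that the gels differed in this response. The difference was -0.30 ± 0.14 for Tlr2 (95% interval -0.59 to 0.00) and -0.30 ± 0.15 for Tlr7 (-0.63 to 0.03).

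Other genes of the pathway were described from lists by role, and the shares of all genes called given above are the background of each count. Among 2 other Toll-like receptors, Tlr3, the sensor of double-stranded RNA, was higher in fibrin than in collagen under TNF, at 8.23 against 7.60 (0.63 ± 0.11, limma adjusted p = 0.00379). Without TNF it was not called (0.34 ± 0.11). Of 13 co-receptors and receptor chaperones, 2 were higher and 2 lower in untreated fibrin, where 5.35% and 5.19% of all genes were. Lower was Cd36, a scavenger receptor that assists Tlr2, at 3.84 in fibrin control against 4.85 in collagen control (-1.01 ± 0.13). TNF lowered it in collagen as well (-0.79 ± 0.13, limma adjusted p = 0.00192). The levels of Cd36 were low on the scale, with group means below every array median (at least 5.89). Higher was Rftn1, which aids the uptake of Tlr4 (0.38 ± 0.08). Cd180, a relative of Tlr4 found on B cells and macrophages, fell with TNF in fibrin (-0.80 ± 0.19, limma adjusted p = 0.0402).

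Downstream, 5 of 19 adaptors, kinases and ubiquitin ligases were higher in untreated fibrin and 7 under TNF, and 2 rose with TNF in each gel. Of all genes 5.35% were higher in untreated fibrin and 4.55% under TNF, and 3.27% rose with TNF in collagen and 1.65% in fibrin. Pik3ap1, an adaptor that links the receptors to phosphoinositide 3-kinase, stood at 7.43 in fibrin control against 5.98 in collagen control (1.46 ± 0.10, limma adjusted p = 1.23e-06). Under TNF it was 7.52 in fibrin and 6.09 in collagen. The kinase gene Map3k8, which passes the signal to ERK, was higher in untreated fibrin by 0.83 ± 0.12, Ikbke by 0.48 ± 0.08 and Traf3 by 0.29 ± 0.06. The kinases and ligase next to Myd88 were uncalled there, with Irak4 at -0.02 ± 0.07, Irak1 at 0.00 ± 0.07 and Traf6 at 0.09 ± 0.06.

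Of 12 inhibitors of the pathway, 4 were higher in untreated fibrin and 4 rose with TNF in collagen. Of all genes 5.35% and 3.27% did so. Zc3h12a, an RNase that degrades cytokine transcripts, was higher in fibrin control than in collagen control by 1.40 ± 0.10 and rose with TNF in collagen by 0.40 ± 0.10. Tnip1, a partner of the ubiquitin editor A20, differed by 0.69 ± 0.07 and 0.95 ± 0.07, Irak3, a kinase-dead relative of the Irak kinases, by 0.61 ± 0.08 and 0.35 ± 0.08, and the phosphatase gene Dusp1 by 0.39 ± 0.08 and 0.44 ± 0.08. Both comparisons use the collagen control arrays. In fibrin TNF raised Tnip1 (0.66 ± 0.07) and lowered Il1rl1, the receptor of interleukin 33 (-1.18 ± 0.20).

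Of 13 genes for NOD-like receptors, peptidoglycan receptors and inflammasomes, 4 were higher and 2 lower in untreated fibrin. Of all genes 5.35% were higher and 5.19% lower there. Casp1, the protease that activates interleukin 1 beta, was higher by 1.03 ± 0.14 and Casp4, which senses cytosolic lipopolysaccharide, by 0.88 ± 0.13. Nod1, the sister of Nod2, was higher by 0.30 ± 0.08, and Nod2 differed by 0.18 ± 0.08, uncalled. Pycard, the adaptor that joins sensors to Casp1, was lower (-0.43 ± 0.12), as was Card9 (-0.28 ± 0.06). Of 8 phagocytic and lectin receptors, 3 rose with TNF in collagen, where 3.27% of all genes rose. These receptors were Clec4d (1.55 ± 0.31) and Clec4e (0.84 ± 0.17), which bind mycobacterial glycolipid, and the integrin chain Itgam (0.50 ± 0.10). Clec4d and Clec4e were lower in fibrin than in collagen under TNF, with differences of -1.47 ± 0.31 and -0.85 ± 0.17.

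Of 8 genes for proposed endogenous ligands, 2 were higher in untreated fibrin, where 5.35% of all genes were. These ligand genes were S100a9 (0.81 ± 0.19) and the proteoglycan gene Vcan (0.44 ± 0.12). S100a9 was low on the scale, at 5.44 in fibrin control and 4.62 in collagen control, below every array median. S100a8, the partner of S100a9, averaged between 2.67 and 2.75 in the 4 groups, near the bottom of the scale, and its difference is not read here. Of 17 genes listed as responding to these receptors, 14 were higher in untreated fibrin, where 5.35% of all genes were. The median difference of the 17 there was 2.11, against -0.01 over all genes. Under TNF 13 were higher in fibrin, where 4.55% of all genes were. With TNF 10 rose in collagen and 4 in fibrin, where 3.27% and 1.65% of all genes rose. A rise of 10 of these 17 genes was thus also seen with added TNF in collagen. The signal behind their levels, in untreated fibrin or with TNF, was not tested. The response genes Lcn2 and Nfkbiz were higher in untreated fibrin by 2.88 ± 0.20 and 1.23 ± 0.07. Cxcl1, a neutrophil-attracting chemokine, differed by 3.22 and the inhibitor Nfkbia by 0.81, while the 9 receptor and adaptor genes differed by at most 0.69.

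**Figure D3:**
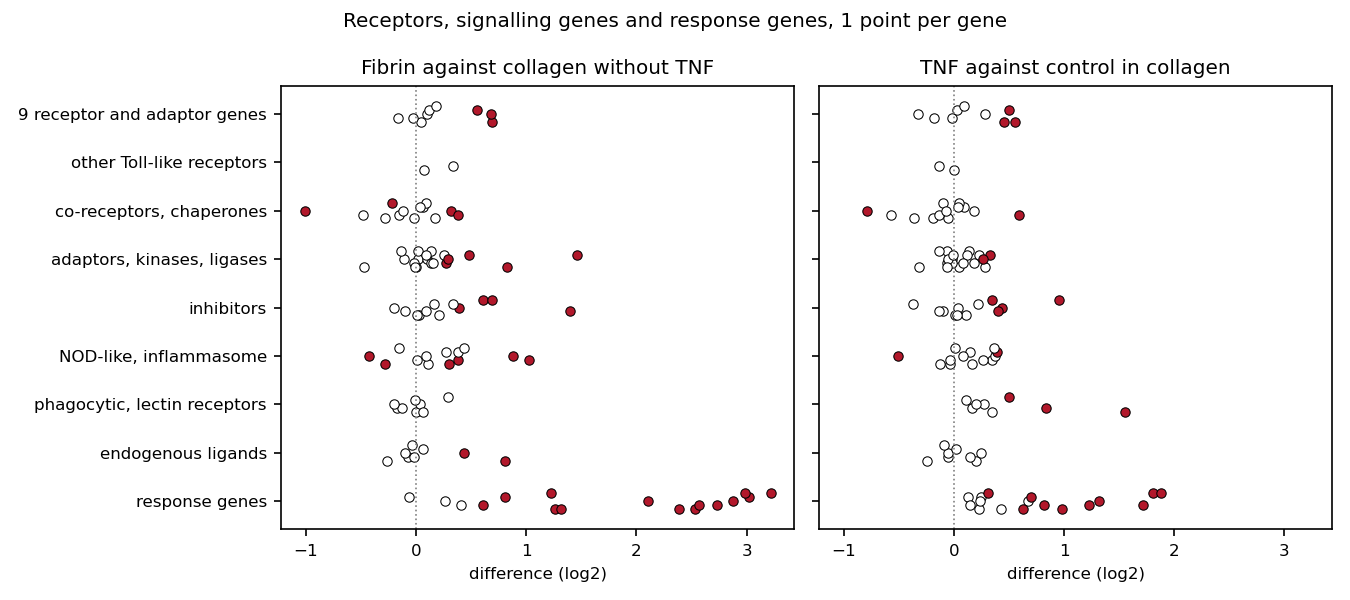
Differences (log2, x axis) of single genes, 1 point per gene, for the 9 genes and 8 lists of other pathway genes (rows), for fibrin against collagen without TNF (left) and TNF against control in collagen (right); filled points were called. Response genes reach 3.22 in untreated fibrin, while the 9 receptor and adaptor genes lie between -0.16 and 0.69.

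Most markers of macrophages and monocytes, cells rich in these receptors, were lower in fibrin than in collagen, but not all. The mean level of 15 of 16 listed markers lay between 8.37 and 8.59 in fibrin TNF, 8.56 and 8.79 in fibrin control, 8.98 and 9.33 in collagen TNF, and 9.14 and 9.33 in collagen control. In untreated fibrin 9 of the 15 were lower than in collagen and 2 were higher, Ctss and Fcgr3a, and under TNF 9 were lower and 1 was higher. The largest decreases in untreated fibrin were those of Cd163 (-2.19 ± 0.25), Mrc1 (-1.65 ± 0.19) and Folr2 (-1.57 ± 0.11). Among the markers not called there were Cd68 (-0.16 ± 0.09) and Adgre1 (0.52 ± 0.19). Of all genes 5.19% were lower and 5.35% higher in untreated fibrin, and 3.64% lower and 4.55% higher in fibrin under TNF. Tlr2 and Tlr7 were thus higher in untreated fibrin while most of these markers were lower. For TNF in collagen, where Tlr2, Tlr7 and Cd14 rose, 1 of the 15 rose, Lyz2 (0.41 ± 0.08), and the ranges of the mean overlapped. The mean of 11 neutrophil markers lay between 4.30 and 4.45 in fibrin TNF, 4.19 and 4.44 in fibrin control, 4.22 and 4.36 in collagen TNF, and 4.21 and 4.26 in collagen control, and S100a9 was the 1 marker called in any of the 4 comparisons. Markers of dendritic cells (6 of 7) and of B and T cells (8 of 10) had 0 and 1 member called in untreated fibrin, Cd4, which rat macrophages also carry. The mean levels of neutrophil, dendritic cell, and B and T cell markers lay below every array median (at least 5.89). Few calls among them are therefore not read as unchanged cell content. Smooth muscle markers had 4 of 8 members lower in untreated fibrin and 3 of 8 lower with TNF in collagen, where 5.19% and 3.10% of all genes were lower. Of 9 fibroblast markers 1 was higher and 2 lower in untreated fibrin, and 2 rose and 2 fell with TNF in collagen, where 3.27% of all genes rose and 3.10% fell. Of 7 endothelial markers Cldn5 was lower in both of these comparisons. The part of any cell type in the levels of the 9 genes was not tested.

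**Figure D4:**
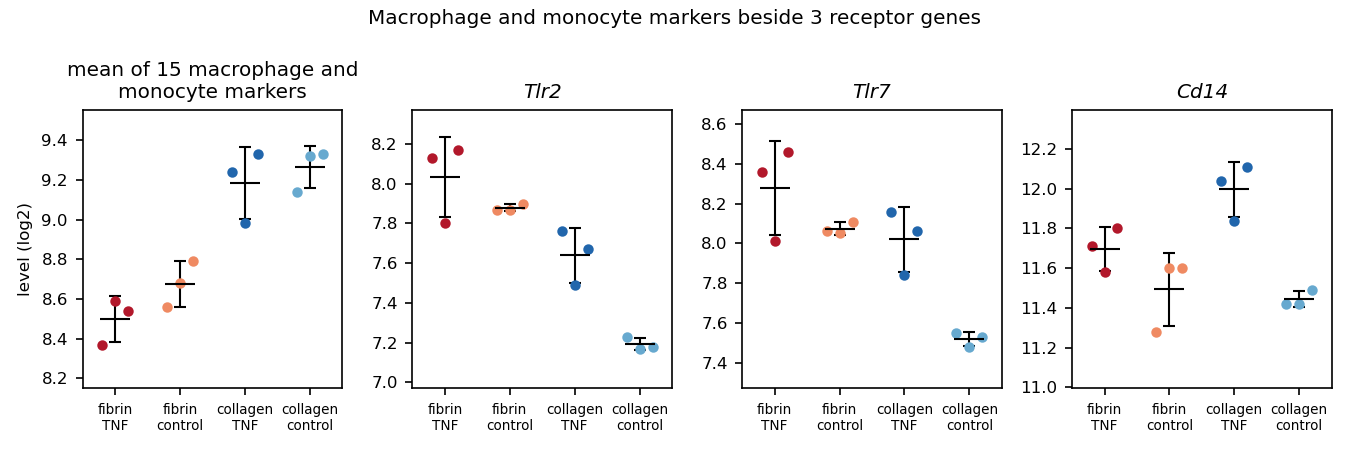
Mean level of 15 macrophage and monocyte markers and levels of Tlr2, Tlr7 and Cd14 (log2, y axes, each spanning 1.4) in the 4 groups (x axis), with 1 point per array, and mean and SD of 3 arrays in black. The marker mean is at most 8.79 on the 6 fibrin arrays and at least 8.98 on the 6 collagen arrays, while Tlr2 is higher on the fibrin arrays.

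No gene of the 9 had group means that spanned 1 on the log2 scale, the limit set for naming genes of like pattern. The span was 0.84 for Tlr2, 0.76 for Tlr7, 0.68 for Tlr6, 0.59 for Ly96, 0.55 for Cd14, 0.38 for Tlr4, 0.35 for Nod2, 0.26 for Myd88 and 0.17 for Lbp. Without that limit, a choice made after the values were seen, likeness was measured over the 4 group means as the root mean square difference after centring each gene. The nearest genes of the whole table to Tlr2 were Has1 (0.035), Plin2 (0.044) and Prdx5 (0.046). Those nearest to Tlr7 were Sowahc (0.015), Slc43a2 (0.023) and Il7 (0.025). Those nearest to Cd14 were Loxl4 (0.021), Slc1a1 (0.045) and Ccn1 (0.051), and those nearest to Ly96 were Or8g50 (0.021), Pgf (0.024) and Bmx (0.031). Or8g50 had group means of 2.69 to 3.23, near the bottom of the scale, so its likeness is not read here. Group means of Il7 and Slc1a1 also lay below every array median (at least 5.89). Genes nearest to the other members are not given here.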

How the data were processed

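Expression was measured on 12 Affymetrix whole-transcript arrays from 200 ng of total RNA each, per the labels' protocols. The authors deposited 1 value per probe set and array, read here as log2 levels from their range of 1.44 to 14.07. The submitters' processing notes name limma, while summarisation, background correction and normalization are not given in the sources used here. Of 27342 probe sets, 15097 name 1 gene, 323 several, and 11922 are unnamed here. The probe set of highest mean stood for each gene (14324 genes). Of the 1-gene probe sets, 15067 matched a RefSeq gene of GRCr8.

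The model was fitted by limma 3.58.1 under R 4.3.3 with lmFit and eBayes, on the 12 arrays together with a mean for each group, and tests were two-sided. No filter was applied. The fit was tested on simulated data with 200 changed genes per comparison. Between 2 groups the data gave more calls, 448 to 1510, and recovery depends on that number. The rates below therefore hold for the simulated setting. Changes of 0.5 (log2), the size of the Tlr7 difference for TNF in collagen, were recovered at 56% to 74% between 2 groups. For the difference of TNF effects 41% of them were recovered. Changes of 1 were recovered at 89% to 99%. False calls made up 1.73% to 8% of the calls. An uncalled difference of 0.5 or less is therefore not a sign of no change. Errors of differences are SE. The number of arrays limits the precision (median SE 0.09). No scan date or slide was available to test as a batch. The genes, lists and tests were chosen with earlier results of these data known. From each list up to 6 called and 3 uncalled genes per comparison could be named.

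Arrays of the same replicate number deviated together from their group means within each gel (fibrin correlations across genes 0.25, 0.14 and 0.16, collagen 0.13, 0.14 and 0.14). These low correlations are a hint that the numbers pair the samples within a gel, but no label says so. A result within a gel is therefore given with the block where the block changes its call. Between gels the correlations did not all pass 0.1 (0.23, 0.08 and 0.13 without TNF, and 0.05, 0.03 and 0.14 with TNF). The printed differences, errors and adjusted p-values come from the fit with no block unless a block is named. Alternatives were median centring, quantile normalization, the replicate block, fitting only the groups compared, leaving out the lowest 33.3% of genes by mean, a prior that was trended and robust, the mean of a gene's probe sets and each array left out.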

Additional observations from a re-analysis of the deposited data

Results flagged for a closer look

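Lcn2 and Nfkbiz, 2 of the 17 genes listed as responding to Toll-like receptor signalling, differed between gels in their TNF effect, by a test of that difference. No gene of the other pathway lists was called in this test, where 1.24% of all genes were. The alternative settings were not examined for these 2 genes. For Lcn2 the TNF effect in fibrin minus that in collagen was -1.58 ± 0.29 (log2, SE, limma adjusted p = 0.0187), with effects of -0.26 ± 0.20 in fibrin and 1.32 ± 0.20 in collagen. For Nfkbiz the difference was -0.56 ± 0.10 (limma adjusted p = 0.0166), with effects of -0.24 ± 0.07 in fibrin and 0.31 ± 0.07 in collagen. In level, Lcn2 averaged 8.02 in fibrin TNF, 8.28 in fibrin control, 6.72 in collagen TNF and 5.40 in collagen control, and Nfkbiz 8.31, 8.55, 7.64 and 7.33 in the same order. None of the 9 receptor and adaptor genes was called for this difference by limma, and 3 of them had an unadjusted p under 0.05, where 13.1% of all genes did.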

How the results depend on the processing

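Of 301 values of single genes under settings other than leaving out an array, 293 kept their direction and side of the threshold. Beside the call changes given above, Lbp between the untreated gels turned to 0.03 after median centring. Of the 9 genes, those called for TNF in fibrin numbered 0, not 1, with the replicate number as a block and 0 with only the fibrin arrays, a fit that also gave 230 calls over all genes, against 448. Under TNF, 4 of the 9 were called between gels when the prior was trended and robust, and 1 when the fit held only the groups compared, against 2 in the main setting. For the difference of the TNF effect all genes called numbered 294 without dim genes and 339 with a trended and robust prior, not 177. The replicate block changed no other call of the 9 genes, and with it 1018 and 556 genes passed for TNF in collagen and fibrin, 1824 between the untreated gels, 1484 between the gels under TNF, and 208 for the difference of TNF effects. Between gels 3 of 3 numbers correlated best with their own number under TNF, and 2 of 3 without TNF, a hint from the data and not from the design.

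With 1 array left out, members called ranged from 1 to 3 for TNF in collagen, 0 to 1 for TNF in fibrin, 2 to 3 between untreated gels, 1 to 3 between gels with TNF, and 0 to 1 for the difference of effects. All genes called ranged from 568 to 769, 237 to 539, 1071 to 1298, 727 to 1196, and 103 to 246 in the same order. Values near 0 changed sign: Tlr6 with TNF in fibrin ranged from -0.15 to 0.00, Cd14 between untreated gels from -0.01 to 0.16, and the difference of the Tlr4 effect from -0.10 to 0.02. Fits with fewer arrays have less precision; the cause of the other changes was not tested. The filter on dim genes gave no value for Nod2.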
